A study of Homo sapiens with 6 samples.

Results

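SW1990 is an established cell line from a human pancreatic cancer. Its 4 libraries of sorted cells carry the number 0603 or 0610 in their titles, and the expression of genes was compared between these numbers within each sorted fraction. They are 4 of the 6 libraries of the series. Per the labels, cells of the parental line grown in DMEM/F-12 medium with fetal bovine serum were divided by flow cytometry into those that stain for TRA-1-81 (positive) and those that do not (negative). TRA-1-81 is a sugar structure on the protein podocalyxin, used as a marker of pluripotent stem cells. Each number has 1 positive and 1 negative library, and none of the 4 is labelled with a drug or a genetic change. The other libraries are 1 of the unsorted parental line and 1 of a derivative kept in 100 nM gemcitabine, a nucleoside analogue, and they are used here only as values beside the sorted ones. The labels do not state what 0603 and 0610 mark, nor whether the positive and negative libraries of a number came from 1 culture. Culture, sorting, library preparation and any other difference between the numbers therefore cannot be told apart, and the p-values measure the spread among these libraries alone, which may be technical.

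Levels are given as FPKM, the fragments of a gene divided by its transcript length and by the library's depth, and differences are 0610 minus 0603 on the log2(FPKM + 1) scale, on which changes of genes with low levels come out too small. Of 19077 genes, 11533 reached an FPKM of 1 in 2 or more sorted libraries and were tested with limma, with the fraction as a term. A gene is called higher or lower in 0610 at a Benjamini-Hochberg adjusted p under 0.05.

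Many of the largest differences between the numbers lay in genes of the integrated stress response. In this response, kinases that sense amino acid shortage, unfolded protein in the endoplasmic reticulum and other stresses phosphorylate the initiation factor eIF2, which slows translation in general while the transcription factor ATF4 is translated more. ATF4, paired with C/EBP proteins, binds amino acid response elements, also called C/EBP-ATF response elements, and raises genes for amino acid synthesis, amino acid import and tRNA charging. Pancreatic cancer cells are known for a high demand for amino acids. Background of the same kind applies to the gene groups that were lower: heat shock factors bind repeats of short GAA and TTC blocks before chaperone genes, and E2F factors bind GC-rich sites before genes of DNA replication.

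The promoters of some of these genes are shown because they carry the letters of such elements, searched on both strands in the 250 bases before and 50 bases after each annotated start in RefSeq promoters (GRCh38.p14). Each sequence is read 5′ to 3′ on the strand of its gene and ends before the start, with matches in capitals. The first set holds the amino acid response element core TGATGNAA: ASNS (chr7:97872439-97872506, minus strand), CHAC1 (chr15:40953232-40953299, plus strand), CEBPG (chr19:33374041-33374108, plus strand), JDP2 (chr14:75427976-75428021, plus strand), SLC1A5 (chr19:46784874-46784941, minus strand), AARS1, called AARS in the deposited table (chr16:70289656-70289723, minus strand), and IARS1, there called IARS (chr9:92293698-92293740, minus strand). In CHAC1, AARS1 and IARS1 the capitals are the reverse complement of the core.
ASNS: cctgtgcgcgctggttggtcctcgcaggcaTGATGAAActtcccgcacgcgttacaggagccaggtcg
CHAC1: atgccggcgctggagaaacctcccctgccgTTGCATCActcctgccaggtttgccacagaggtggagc
CEBPG: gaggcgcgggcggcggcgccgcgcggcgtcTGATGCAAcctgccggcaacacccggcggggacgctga
JDP2: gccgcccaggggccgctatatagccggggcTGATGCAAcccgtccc
SLC1A5: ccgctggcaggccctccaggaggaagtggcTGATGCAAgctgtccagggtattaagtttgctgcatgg
AARS1: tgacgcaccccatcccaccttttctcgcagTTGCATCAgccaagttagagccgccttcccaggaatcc
IARS1: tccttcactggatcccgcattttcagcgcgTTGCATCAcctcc

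The second set holds the heat shock element, TTCNNGAA or GAANNTTC, before chaperone genes: HSPA1A (chr6:31815407-31815474, plus strand), HSPD1 (chr2:197500038-197500090, minus strand) and HSP90AA1 (chr14:102087075-102087162, minus strand). The third set holds an E2F site, TTTGGCGC, TTTGCCGC, TTTCGCGC or TTTCCCGC, before genes of DNA replication: E2F1 (chr20:33686386-33686448, minus strand), MCM3 (chr6:52284879-52284946, minus strand) and GINS2 (chr16:85688955-85689015, minus strand). Overlapping matches run together in the capitals.
HSPA1A: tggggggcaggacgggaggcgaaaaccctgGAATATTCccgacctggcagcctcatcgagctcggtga
HSPD1: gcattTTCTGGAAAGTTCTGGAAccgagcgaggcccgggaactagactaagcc
HSP90AA1: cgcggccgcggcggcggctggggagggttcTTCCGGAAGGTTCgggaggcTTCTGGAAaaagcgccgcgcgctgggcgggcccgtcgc
E2F1: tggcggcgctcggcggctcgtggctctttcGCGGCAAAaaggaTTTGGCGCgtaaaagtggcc
MCM3: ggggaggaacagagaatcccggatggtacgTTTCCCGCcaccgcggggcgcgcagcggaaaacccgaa
GINS2: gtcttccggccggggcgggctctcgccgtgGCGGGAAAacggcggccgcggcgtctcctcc

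The core TGATGNAA was found in 4.46% of 27305 genes with a promoter in the table and in 2.66% of 9483 tested genes with one. Among listed genes with a promoter entry it was found in 5 of 18 integrated stress response factors, 3 of 10 enzymes of amino acid and one-carbon synthesis, 5 of 11 amino acid transporters and 6 of 13 tRNA synthetases, and in 0 of 28 genes of DNA replication. The 5 stress response genes were ATF3, CEBPG, CHAC1, FGF21 and JDP2. GDF15, TRIB3, STC2 and ADM2, with the largest differences of that list, were not among them. The heat shock element was found in 13.7% of the tested genes and in 11 of 14 heat shock proteins. These 11 are not the same as the 11 called lower below. DNAJB1 and HSPB1 held the element and did not pass the threshold, while HSPE1 was lower and had no match. The element was also found in 4 of 10 enzymes of amino acid and one-carbon synthesis. An E2F site was found in 6.86% of the tested genes and in 16 of 28 genes of DNA replication. Of 12 genes with an entry that were lower by at least 0.5 in each fraction, 6 held the heat shock element and 0 an E2F site. A match describes letters in a window of DNA and says nothing of binding in these cells.

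The 4 sorted libraries were close to each other. Each had 11379 to 11483 genes at an FPKM of 1 or more, and the 100 highest genes held 28.5% to 30.8% of the summed FPKM. Read counts cannot be had from these values. Short olfactory receptor genes, by their smallest values, put the FPKM of a 1 kb gene with 3 fragments at about 0.0974 to 0.111. Over 11527 genes, the positive and negative library of each number had a Pearson correlation of 0.997, against 0.994 for the positive libraries of different numbers and 0.992 for the negative ones. The positive and negative libraries of a number were thus closer to each other than libraries of the same fraction with different numbers. There were 6 genes, among them PKM, APLP2, CHD3 and LPP, each listed at 0 in 1 sorted library and at an FPKM of 7.2 or more in the other 3. For example, PKM, a glycolytic enzyme, was listed at 0 in the positive library 0603 and at 1316, 1139 and 1160 in the others. An exact 0 in this table can thus be a failed estimate. All 6 passed the threshold with a difference of over 3 on the log2 scale in only 1 fraction, so they are given no direction here.

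PODXL, which encodes podocalyxin, had an FPKM of 108 and 104 in the positive and negative libraries 0603 and of 109 and 110 in those of 0610, a difference of 0.04 that did not pass the threshold (limma adjusted p = 0.322). Several markers of the labelled epithelial line were high in all 4 libraries. KRT8 lay between 1674 and 2291, KRT19 between 981 and 1092, EPCAM between 210 and 235 and CDH1 between 62.0 and 72.8. CLDN3, of the same list, was low, at 1.43 and 1.49 in 0603 and 2.41 and 2.18 in 0610. Markers of other cells were low but for CD68 of the leukocyte list, at 25.5 and 20.2 in 0603 and 21.0 and 18.3 in 0610. Summed over their lists, 8 leukocyte markers lay at 29.5 and 23.9 in 0603 and at 26.3 and 22.9 in 0610, 9 fibroblast markers at 7.08 and 6.35 against 7.34 and 7.67, and 6 endothelial markers at 2.23 and 2.70 against 3.35 and 4.87. PTPRC, the pan-leukocyte marker CD45, did not exceed 0.0205, and DCN and THY1 were listed at 0 in all 4. PECAM1, an endothelial marker, lay between 0.385 and 0.528. Of these markers, 6 were tested and 4 passed the threshold. CDH5, the endothelial cadherin and the 1 endothelial marker tested, was at 1.56 and 2.04 in 0603 against 2.60 and 4.01 in 0610, higher by 0.61 ± 0.07 (limma adjusted p = 0.000181). COL1A1, a collagen, and LYZ, lysozyme, were higher by 0.29 ± 0.06 and 0.34 ± 0.07, and CD68, a macrophage marker, was lower with a difference of -0.20 ± 0.04. All 4 calls were lost without the fraction term, and the part of such cells in the results below was not tested. In bulk libraries, fewer cells of a type and less RNA per cell cannot be told apart.

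Between the numbers, 4753 genes passed the threshold (41.2% of those tested), with 2585 higher in 0610 (22.4%) and 2168 lower (18.8%). Most of these differences were small: the median size among called genes was 0.21 on the log2 scale, and 94.2% lay under 0.5. A difference of at least 0.5 in each fraction was seen in 187 genes higher in 0610 (1.62%) and 17 lower (0.147%). Of these, 30 were at least 2-fold higher in each fraction (0.26%), and 0 were 2-fold lower in each. Some genes passed the filter through 1 number alone: H3F3A, INHBE and KIF21B among the 30, and STXBP6 and URGCP-MRPS24 among the 17. H3F3A was at 0.0014 in both 0603 libraries against 2.63 and 2.44 in 0610. It was near 0.003 in both unsorted libraries, and such values may be failed estimates. Within the positive fraction alone, the 2-fold mark was passed by 34 genes upwards (0.295%) and 5 downwards (0.0434%). Within the negative fraction it was passed by 42 upwards (0.364%) and 1 downwards (0.00867%). The large differences were therefore mostly in 1 direction, while the small ones were spread over both. Both 0610 libraries lay above both 0603 libraries in 3698 genes (32.1%) and below both in 3269 (28.3%). The differences in the 2 fractions, which share no library, correlated across genes at 0.65 (Pearson), and at 0.83 without the 6 genes listed at 0 in 1 library. Genes are not independent replicates, so no p is given.

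These counts rest on the fraction term and on the filter. With no filter on low values limma called 0 genes in either direction, while 4898 had an unadjusted p under 0.05. Without the fraction term, 657 genes were higher and 390 lower. Of the 125 genes named in the text that passed the threshold, 90 still did without the term and 120 under quantile normalization, each in the same direction. Counts of called list members below are to be read beside the shares over all genes tested, 22.4% higher and 18.8% lower. Counts of list members without the term are given below where they differ by over 1.5 times. These are to be read beside the 657 higher and 390 lower among all 11533 genes tested in that fit. Without the fraction term and with 1 library left out, which assumes that the lone library of a number varies like the libraries of the other, 21 genes were higher and 0 lower without the positive library 0603, 83 and 6 without the positive library 0610, 18 and 0 without the negative library 0603, and 76 and 6 without the negative library 0610.

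**Figure D1:**
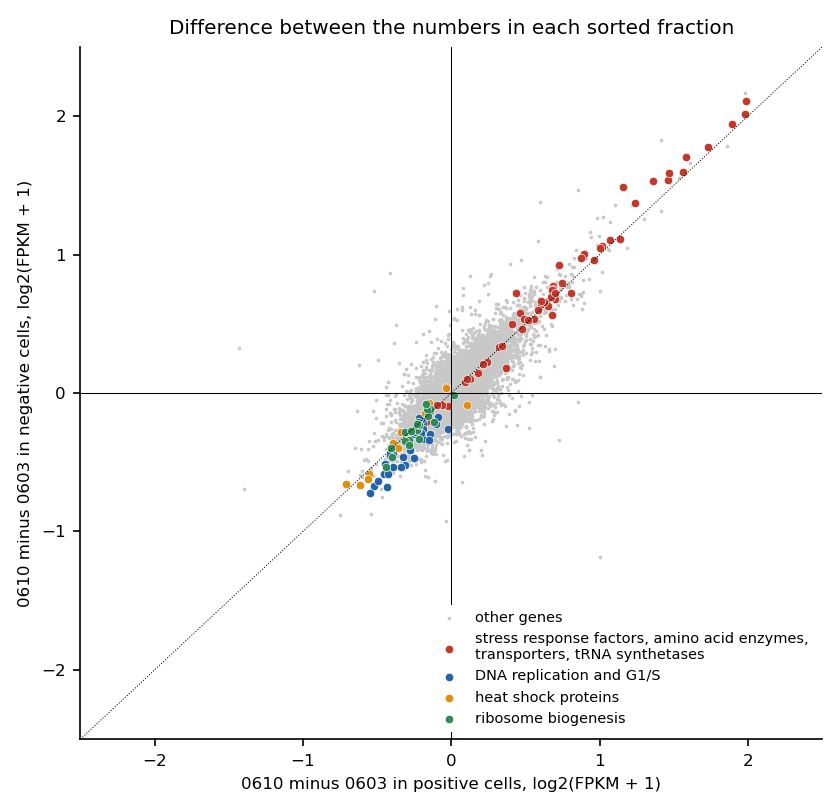
Difference of each tested gene between 0610 and 0603 in positive cells (horizontal axis) and in negative cells (vertical axis), in log2(FPKM + 1), with members of the gene lists in colour; the 6 genes listed at 0 in 1 library lie outside the axes. Genes of the amino acid and integrated stress response lists reach about 2 in both fractions, while replication genes and most heat shock genes lie below 0 in both, with HSPB1 above 0 in positive cells and DNAJB1 in negative cells.

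The 30 genes at least 2-fold higher in each fraction included 15 from the 4 lists of the integrated stress response, amino acid synthesis, amino acid transport and tRNA charging, which have 63 tested members. Of the 187 genes higher by at least 0.5 in each fraction, 36 were in these 4 lists, and 22 of the 144 with a promoter entry held the core TGATGNAA. The lists were chosen with earlier results of these data known, so these shares are descriptions.

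Among factors and targets of the integrated stress response, 14 of 17 tested genes were higher in 0610, 0 were lower, and the median difference was 0.77, against 0.01 over all genes tested. ATF4 itself, the central transcription factor, had an FPKM of 219 in the positive and 227 in the negative library 0603, and of 368 and 394 in those of 0610. Both 0610 libraries were above both 0603 libraries, as in 32.1% of all genes tested, by 0.77 ± 0.03 (SE of the fit, as for each difference below, limma adjusted p = 1.54e-07). Its partners CEBPB and CEBPG, transcription factors of the C/EBP family, were higher by 0.77 ± 0.04 and 0.69 ± 0.04. DDIT3, the stress factor CHOP, was at 9.25 and 9.05 in 0603 and at 15.4 and 13.8 in 0610. TRIB3, a pseudokinase that dampens ATF4 activity, was at 12.3 and 12.5 in 0603 and at 48.4 and 51.1 in 0610, a difference of 1.92 ± 0.04 (limma adjusted p = 7.60e-10). The 0610 values of TRIB3 were close to each other and far from those of 0603.

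CHAC1, a glutathione-degrading enzyme whose promoter is shown above, was at 10.2 and 10.1 in 0603 and at 32.1 and 32.5 in 0610, higher by 1.58 ± 0.04. SESN2, sestrin 2, which restrains mTORC1 when leucine is short, was at 4.61 and 4.21 against 14.4 and 14.1. Its groups, like those of CHAC1, did not overlap, and both 0610 libraries lay above both 0603 libraries in 32.1% of all genes tested. Genes of this list that encode secreted proteins were among the highest differences. GDF15, a cytokine of the TGF-beta superfamily and a marker of cell stress, lies on chr19:18496968-18499986 (hg19) and was at 24.4 and 23.6 in 0603 against 99.2 and 98.5 in 0610, a difference of 2.0 ± 0.03 (limma adjusted p = 5.35e-10). STC2, the glycoprotein stanniocalcin 2, was at 5.31 and 5.29 against 19.9 and 20.6, and ADM2, a peptide hormone, at 3.06 and 3.02 against 11.2 and 12.1.

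Feedback arms of the response were higher too. PPP1R15A, the GADD34 subunit that brings a phosphatase to eIF2, differed by 0.52 ± 0.04, and DDIT4, an inhibitor of mTORC1, by 0.55 ± 0.03. JDP2, a basic leucine zipper repressor with the core 16 bases before its start, was at 9.17 and 9.21 in 0603 and at 17.9 and 19.2 in 0610. ATF3, a target of ATF4, was low, at 1.5 and 1.48 against 2.23 and 1.81, and its call was lost without the fraction term and under quantile normalization. Both eIF2 kinases in the list missed the threshold. EIF2AK3, the kinase PERK of the endoplasmic reticulum, was at 8.15 and 7.61 against 8.97 and 8.23 (limma adjusted p = 0.0855), and EIF2AK4, the amino acid sensor GCN2, at 17.0 and 19.1 against 16.8 and 17.8 (limma adjusted p = 0.291). ATF5, a related transcription factor, did not pass either, at 0.09 ± 0.04. NUPR1 and FGF21, listed with this group, stayed under an FPKM of 1 in all 4 libraries and were not tested.

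**Figure D2:**
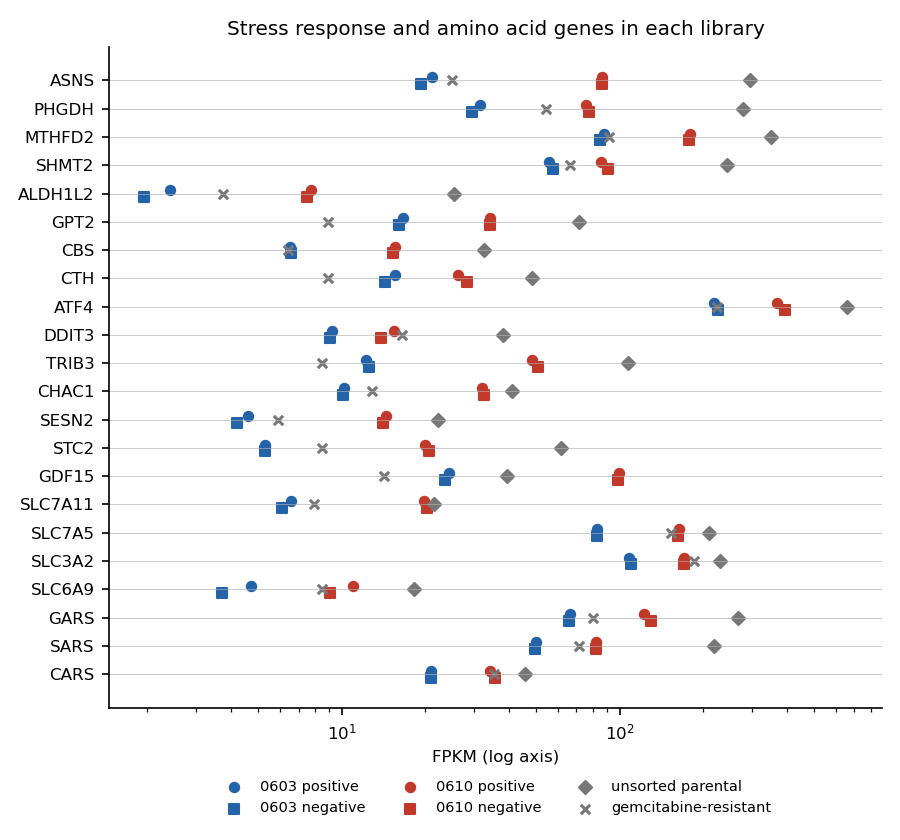
FPKM (log axis) of genes of the stress response and amino acid lists in each of the 6 libraries, 1 symbol per library. The 0610 symbols lie to the right of the 0603 symbols, with the positive and negative fraction of a number close together; for ASNS the parental library lies furthest right, at 295.

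Of the enzymes of amino acid and one-carbon synthesis, 12 of 14 tested were higher in 0610, 1 was lower, and the median difference was 0.78. ASNS, which makes asparagine from aspartate and glutamine, lies on chr7:97481429-97501854 (hg19) and had the largest difference of the list. It was at 21.1 in the positive and 19.3 in the negative library 0603, and at 86.8 and 86.7 in those of 0610, a difference of 2.05 ± 0.04 (limma adjusted p = 7.60e-10). Of the serine branch, PHGDH and PSPH were higher: PHGDH, the first enzyme of serine synthesis, was at 31.3 and 29.4 against 75.5 and 77.6, and PSPH, the last, differed by 0.73 ± 0.04. PSAT1, the enzyme between them, was listed at 0 in all 4 libraries, so it has no value to compare.

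The mitochondrial one-carbon enzymes, which pass on the carbon unit of serine, were also higher. MTHFD2 was at 88.2 and 84.8 in 0603 and at 180 and 178 in 0610, ALDH1L2 at 2.42 and 1.95 against 7.79 and 7.53, and SHMT2 at 55.9 and 57.8 against 85.6 and 91.0. The cytosolic SHMT1 was at 14.3 and 14.7 against 13.5 and 13.8, without passing the threshold (limma adjusted p = 0.152). Of the transsulfuration enzymes that make cysteine, CBS was higher by 1.12 ± 0.05 and CTH by 0.83 ± 0.05. In proline synthesis the enzymes parted: PYCR1, the last step, was higher by 0.47 ± 0.04, while ALDH18A1, the first, was lower, with a difference of -0.17 ± 0.04 (limma adjusted p = 0.00495), a call lost without the fraction term. GPT2, a mitochondrial alanine transaminase, was at 16.6 and 16 against 34.3 and 34.2. Outside the list, PCK2, the mitochondrial phosphoenolpyruvate carboxykinase, was at 21.6 and 21.4 against 67.8 and 69.6, a difference of 1.63 ± 0.04.

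Amino acid transporters were higher in 10 of 12 tested genes and lower in 2, with a median of 0.68. SLC7A11, the cystine importer of system xc-, was at 6.55 and 6.10 in 0603 and at 19.8 and 20.3 in 0610, higher by 1.53 ± 0.05 (limma adjusted p = 2.31e-08). SLC7A5, the leucine transporter LAT1, was at 83.2 and 82.7 against 163 and 162, and its partner chain SLC3A2 at 108 and 110 against 171 and 170. Both chains of this transporter were thus higher in each fraction. SLC1A5, the glutamine transporter, was at 108 and 111 against 165 and 176, and SLC38A2, a sodium-coupled neutral amino acid transporter, at 192 and 195 against 309 and 329. SLC43A1, a leucine transporter, differed by 1.32 ± 0.08 and SLC6A9, a glycine transporter, by 1.09 ± 0.05. The exceptions were SLC7A6, with a difference of -0.23 ± 0.05, and SLC36A1, a lysosomal and plasma membrane transporter of small amino acids, with -0.21 ± 0.06; neither was called without the fraction term.

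The cytosolic aminoacyl-tRNA synthetases, which charge tRNAs with amino acids, divided: 12 of 20 were higher in 0610, 6 were lower, 2 did not pass, and the median was 0.22. Leaving out the fraction term gave 9 higher and 0 lower. GARS, for glycine, was at 66.3 and 65.6 in 0603 and at 123 and 130 in 0610, the largest difference at 0.93 ± 0.04. CARS, for cysteine, SARS, for serine, and MARS, for methionine, were higher by 0.71 ± 0.04, 0.71 ± 0.03 and 0.68 ± 0.03. KARS, for lysine, was at 115 and 124 against 98.6 and 104, the lowest difference at -0.24 ± 0.03 (limma adjusted p = 0.000317). FARSA and FARSB, the subunits of the phenylalanine enzyme, were both lower, at -0.23 ± 0.04 and -0.18 ± 0.03.

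The 13 synthetases with a promoter entry fell into those with and those without the core TGATGNAA. All 6 with the core were higher, namely AARS, CARS, IARS, MARS, NARS and TARS, with differences from 0.21 to 0.71. Of the 7 without it, EPRS and WARS were higher, and FARSA, FARSB, HARS, KARS and RARS were lower. The other 7 were not matched to a promoter entry by symbol or synonym, so the core was not searched in them. They include GARS, with the largest difference of the list, and SARS. Of these 7, 4 were higher, 1 was lower and 2 did not pass. This division was noticed in these data and has no test. When the fraction term was left out, TARS and WARS were not called higher, nor the 5 genes called lower.

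**Figure D3:**
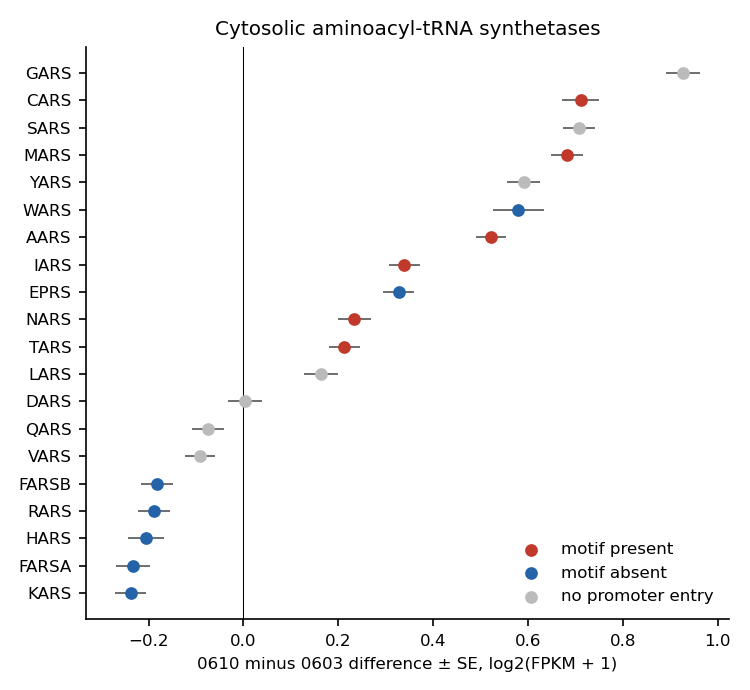
Difference between 0610 and 0603 of each cytosolic aminoacyl-tRNA synthetase in log2(FPKM + 1), with bars for the SE of the fit and colours for the core TGATGNAA in the promoter. Genes with the core lie between 0.21 and 0.71; genes without it lie on both sides of 0.

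These genes were often highest in the unsorted parental library, which lay above all 4 sorted libraries in 35.7% of the genes tested and below all 4 in 45.1%. It was above all 4 in 10 of 17 integrated stress response genes, 13 of 14 synthesis enzymes, 9 of 12 transporters and 14 of 20 synthetases. In the parental library ASNS was at 295, TRIB3 at 108 and PHGDH at 279, and in the resistant one at 25, 8.47 and 54.3. GDF15 did not follow this order, with 39.4 in parental and 14.2 in resistant cells. Parental and resistant cells have 1 library each, so these values have no replicate check. Across 11527 genes, the difference of 0610 from 0603 correlated with that of resistant from parental at -0.26 (Pearson) and -0.31 (Spearman), with no library shared and no p, as genes are not replicates.

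The unfolded protein response of the endoplasmic reticulum, which also has a branch to eIF2, was uneven. Of 20 listed genes, 8 were higher in 0610, 3 were lower and 9 did not pass, and the median was -0.02, which turned to 0.013 under quantile normalization. HERPUD1, of the degradation machinery, was at 39.0 and 40.8 against 67.3 in both 0610 libraries, and ERN1, the sensor IRE1, at 2.76 and 2.45 against 4.41 and 4.59. XBP1, whose RNA IRE1 splices, differed by 0.46 ± 0.03 and DNAJB9, a co-chaperone, by 0.60 ± 0.05. The chaperones CALR and HSP90B1 were lower by little: CALR, calreticulin, was at 831 and 792 against 767 and 747, and HSP90B1 at 402 and 387 against 367 and 361. The calls of these 2 genes were lost without the fraction term and under quantile normalization. CRELD2, an ER protein, was lower by more, with a difference of -0.38 ± 0.04. HSPA5, the chief ER chaperone BiP, was higher by 0.29 ± 0.03.

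Heat shock proteins of the cytosol and mitochondria were lower in 0610 in 11 of 14 tested genes and higher in 0, with a median of -0.35. HSPA1A, the inducible HSP70 whose promoter is shown above, was at 69.1 in the positive and 54.5 in the negative library 0603 and at 42.0 and 34.2 in those of 0610, a difference of -0.68 ± 0.03 (limma adjusted p = 6.51e-07). HSPA1A and its neighbour HSPA1B, at -0.57 ± 0.03, are near-identical copies, and how fragments were divided between them is uncertain. Their calls were lost without the fraction term, where the gap between positive and negative libraries counts as spread within a number. HSPA8, the constitutive HSC70, was at 711 and 767 against 481 and 498. HSPE1, the mitochondrial co-chaperonin, was at 256 and 261 against 167 and 165, and its partner HSPD1 at 482 and 487 against 389 and 398. The values of these pairs were far apart and did not overlap. Of all genes tested, 28.3% had both 0610 libraries below both 0603 libraries. HSP90AA1 and HSP90AB1, the cytosolic HSP90 genes, both differed by -0.38 ± 0.03.

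The 3 members that did not pass were DNAJB1, a co-chaperone of HSP70, at 96.2 and 87.1 against 93.6 and 89.3, HSPB1, the small chaperone HSP27, at 217 and 235 against 234 and 220, and BAG3, at 25.1 and 22.8 against 22.6 and 21.7. The parental library lay below all 4 sorted libraries in 10 of the 14 genes, HSPA1A among them at 23.1, and in 45.1% of all genes tested.

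Genes of DNA replication and the G1/S transition were lower in 0610 in 31 of 32 tested genes, with a median of -0.27. Of these, 16 were lower when the term was left out. MCM4, a subunit of the replicative helicase, was at 82.9 and 86.8 in 0603 and at 57.5 and 54.1 in 0610, a difference of -0.60 ± 0.04 (limma adjusted p = 4.15e-06). MCM3, of the same complex, was at 94.2 and 99.9 against 68.5 and 66.3, and GINS2, of its cofactor, at 47.6 and 51.3 against 33.4 and 32.7. E2F1, a transcription factor of this programme, was at 46.1 and 53.2 against 33.9 and 32.9. The cyclins of S phase entry were lower as well, CCNE2 by a difference of -0.64 ± 0.05 and CCNE1 by -0.51 ± 0.05. PCNA, the sliding clamp, was at 132 and 139 against 98.5 and 101. TYMS, thymidylate synthase, was the member that did not pass, at 29.2 and 30.5 against 28.7 and 25.2 (limma adjusted p = 0.0501).

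Genes of mitosis were differently placed: 12 of 24 were higher in 0610, 1 was lower and 11 did not pass, with a median of 0.10. In the fit with no fraction term 0 of 24 passed in either direction. CENPF, a kinetochore protein, was at 17.8 and 14.4 against 22.3 and 18.2, and MKI67, a proliferation marker, at 31.2 and 25.3 against 29.8 and 24.6 without passing. CDC20, an activator of the anaphase-promoting complex, was the lower member, at -0.15 ± 0.03. CDKN1A, the inhibitor p21 of cyclin-dependent kinases, was at 27.0 and 19.2 in 0603 and at 54.4 and 47.6 in 0610, higher by 1.12 ± 0.06 (limma adjusted p = 6.51e-07). CDKN1B, the inhibitor p27, was higher by 0.48 ± 0.04. CDKN2A and CDKN2B, the inhibitors of the INK4 locus, were listed at 0 in all 6 libraries.

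**Figure D4:**
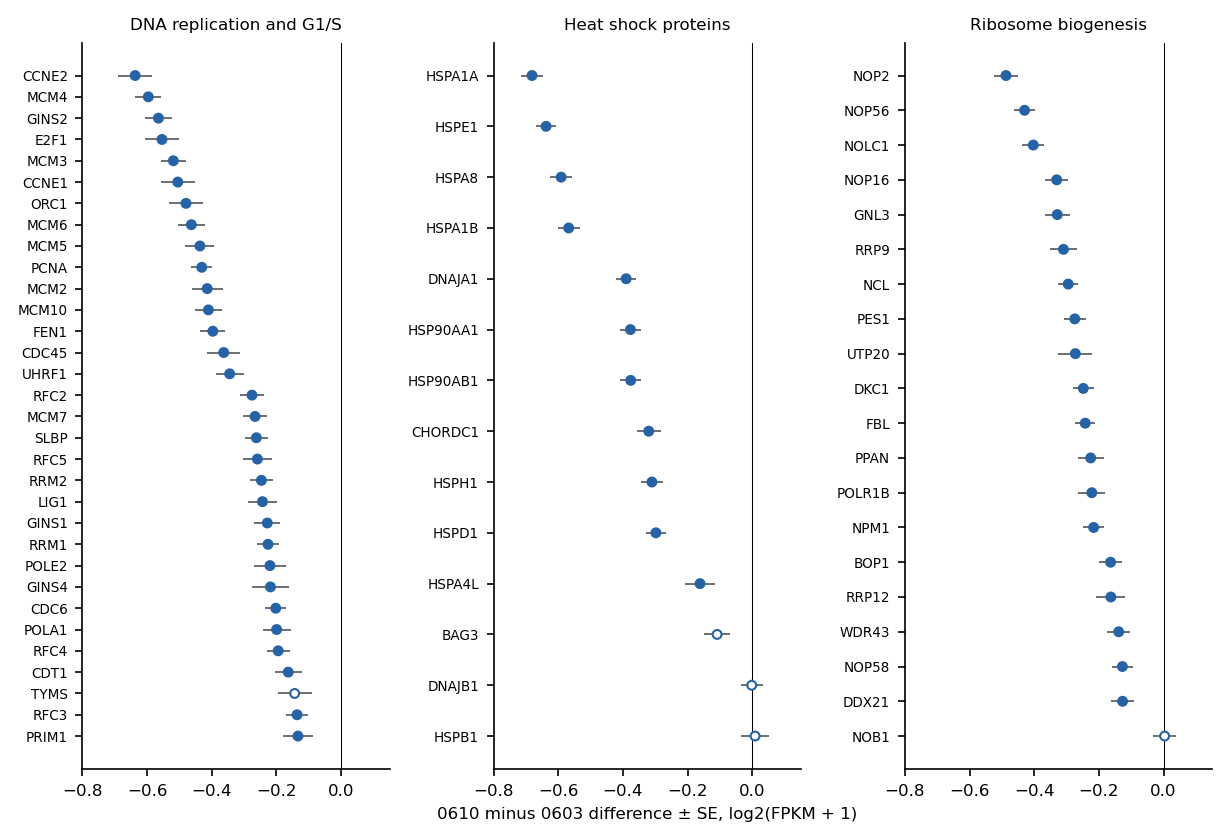
Difference between 0610 and 0603 in log2(FPKM + 1) for the tested members of the heat shock, DNA replication and ribosome biogenesis lists, with bars for the SE of the fit. Most points lie left of 0, from about -0.68 for HSPA1A upwards, and HSPB1 and DNAJB1 lie at 0.

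Other growth machinery was lower by small amounts. Ribosome biogenesis factors were lower in 19 of 20 genes with a median of -0.25, and in 11 without the fraction term: NOP2, an rRNA methyltransferase, was at 43.8 and 47.8 against 32.1 and 32.7, NOP56 at 104 and 111 against 79.0 and 80.3, and NOLC1 at 52.5 and 53.3 against 39.3 and 40.2. Proteasome subunits were lower in 16 of 20 with a median of -0.14, but in 1 without the fraction term, of which PSMC5 differed most, at -0.25 ± 0.03. Of 20 glycolysis genes 12 were lower and 3 higher, PKM among the latter through its listed 0; without the fraction term 2 were lower and 1 higher. LDHA, lactate dehydrogenase, was at 499 and 518 against 421 and 423, whereas SLC16A3, a lactate exporter, was higher by 0.32 ± 0.03. Cytosolic ribosomal proteins were lower in 11 of 26 and higher in 2, with a median of -0.07 that turned to 0.0033 under quantile normalization. Nuclear genes of the respiratory chain were lower in 10 of 18 and higher in 2. Without the fraction term 0 ribosomal proteins and 1 respiratory gene were lower, and 0 of either list higher. TFRC, the transferrin receptor, was lower with a difference of -0.47 ± 0.03, at 108 and 114 against 79.2 and 80.4.

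Genes induced by ERK signalling were higher in 0610 in 11 of 11 tested, with a median of 0.38, and in 6 without the fraction term. ETV5, a transcription factor of the ETS family, was at 19.2 and 19.5 against 34.4 and 37.6, and differed most, at 0.86 ± 0.04. The feedback phosphatases DUSP4 and DUSP6 were higher by 0.46 ± 0.03 and 0.43 ± 0.04, and PHLDA1 by 0.55 ± 0.03. ERRFI1, a feedback inhibitor of the EGF receptor listed with glucocorticoid targets, was at 42.9 and 43.6 against 87.5 and 90.7. Immediate early genes, which respond to the same signals and to handling of cells, were higher in 9 of 16 and lower in 0, with 4 higher without the fraction term. KLF4, JUNB and EGR1, transcription factors, were higher by 0.65 ± 0.06, 0.61 ± 0.04 and 0.59 ± 0.05, of which KLF4 was not called without the term. FOS did not pass, at 63.0 and 53.9 against 57.1 and 60.2, and was at 5.49 in the unsorted parental library.

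NF-kB and inflammatory genes were higher in 15 of 20 and lower in 1, with a median of 0.39, and 10 were higher and 0 lower without the fraction term. IL1A, the cytokine interleukin 1 alpha, was at 18.3 and 15.6 in 0603 and at 54.9 and 47.8 in 0610, higher by 1.55 ± 0.04 (limma adjusted p = 2.53e-09). The chemokines CCL20 and IL8 were higher by 0.74 ± 0.05 and 0.65 ± 0.04, with IL8 at 10.2 and 11.2 against 16.4 and 18.3. IL6 was the lower member, at 2.67 and 2.09 against 1.8 and 1.53. In the resistant library IL1A was at 113 and CCL20 at 153, above the other 5 libraries. Interferon-stimulated genes showed no common direction, with 5 of 24 higher, 5 lower and a median of -0.05. These counts were near the shares over all genes tested, 22.4% higher and 18.8% lower. Without the fraction term 1 was higher and 0 lower. ISG15, a ubiquitin-like protein, was at 630 and 478 against 570 and 444, and XAF1, an apoptosis factor, at 25.8 and 21.4 against 34.9 and 31.0, and neither passed without the fraction term. The positive library was above the negative one of the same number for ISG15 in both numbers.

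Of 18 targets of p53, 10 were higher and 2 lower, with a median of 0.27, and without the fraction term 7 were higher and 0 lower. BBC3, the cell death protein PUMA, was at 2.34 and 1.95 against 6.18 and 6.57, a difference of 1.23 ± 0.07, and BTG2, an antiproliferative factor, at 5.34 and 4.31 against 11.1 and 10.9. GADD45A and TNFRSF10B, a death receptor, were higher by 0.62 ± 0.05 and 0.58 ± 0.04. BBC3, TNFRSF10B and CDKN1A are also known as genes that stress pathways other than p53 raise. MDM2, the ubiquitin ligase that p53 induces against itself, was at 11.1 and 9.70 against 13.9 and 12.1, a call lost without the term.

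Several single genes with large differences stood in other lists or in none. TNFSF18, the ligand GITRL of the TNF family, was at 1.15 and 1.27 against 7.45 and 9.19, and at 25.7 in the parental library. SERPINA3, an acute phase protease inhibitor, was at 3.66 and 3.48 against 11.4 and 14.9. VEGFA, a growth factor of blood vessels, was at 25.9 and 19.3 against 52.2 and 41.5, while the hypoxia list it belongs to had 7 of 14 higher and 4 lower, or 1 and 0 without the fraction term. ULK1, a kinase that starts autophagy, was at 3.17 and 3.0 against 7.71 and 7.21, and MAP1LC3B, of the autophagosome membrane, at 21.7 and 21.2 against 36.3 and 33.5. SPARC, a matrix glycoprotein, was at 2.55 and 3.99 against 7.25 and 11.8, and near 0.34 in both unsorted libraries. TXNIP, which rises with intracellular glucose, was at 111 and 88.9 against 161 and 143. Each of these genes had both 0610 libraries above both 0603 libraries, as had 32.1% of all genes tested.

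Genes of the squamous programme were lower in 9 of 18 and higher in 3, with a median of -0.19, but 1 was lower and 1 higher without the fraction term, which ended the calls of SPRR3, KRT16 and KRT5. SPRR3, a protein of the cornified envelope, was at 13.6 and 8.71 against 7.67 and 4.28, a difference of -0.81 ± 0.05 (limma adjusted p = 3.08e-06), and IVL, involucrin, at 4.95 and 4.09 against 2.92 and 2.35. KRT16, a keratin of activated epithelium, went the other way, at 6.02 and 3.27 against 8.72 and 7.31. The fractions differed here too: KRT5, a basal keratin, was at 263 in the positive and 132 in the negative library 0603, and at 217 and 106 in those of 0610. FOLR1, a folate receptor, and CGB5, a subunit of chorionic gonadotropin with near-identical copies, were lower with differences of -0.71 ± 0.07 and -0.63 ± 0.07.

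**Figure D5:**
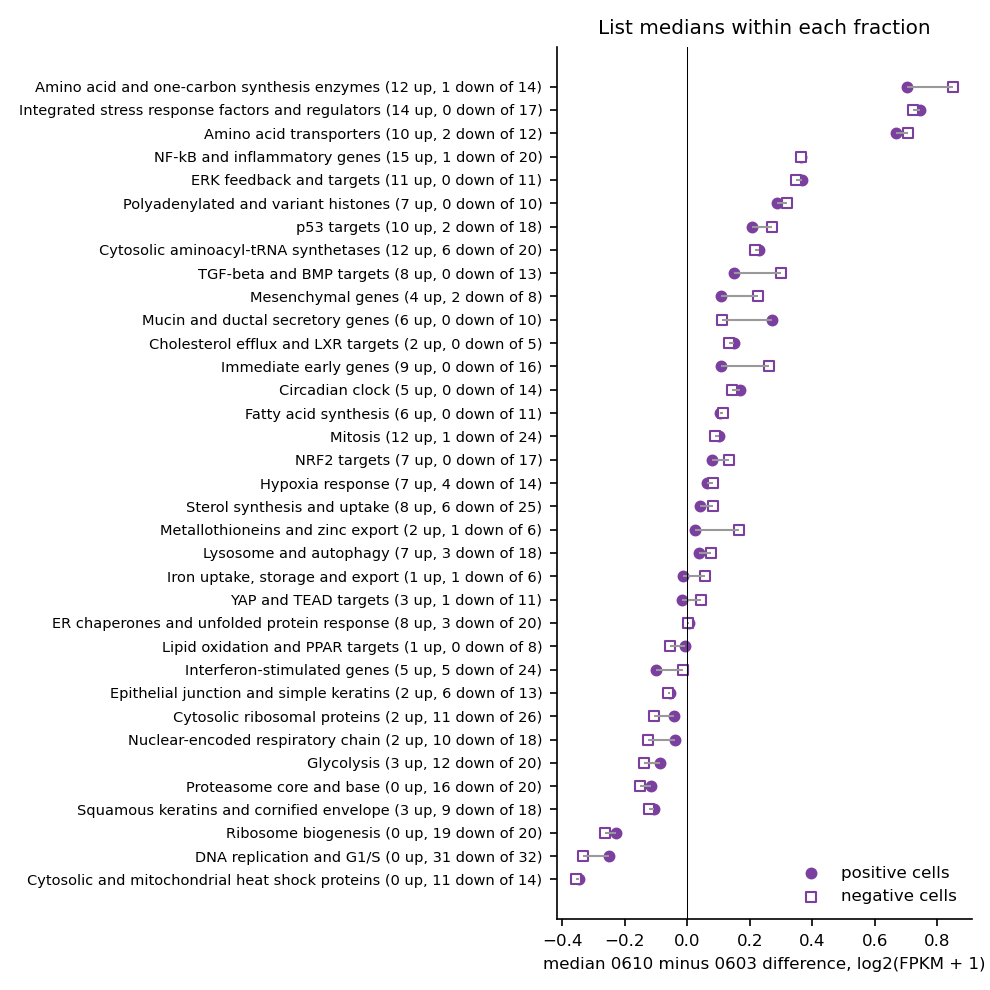
Median difference between 0610 and 0603 in log2(FPKM + 1) for each gene list with at least 5 tested genes, within positive cells (filled) and within negative cells (open), with the counts of members called. The amino acid lists lie at the top, from 0.67 to 0.85 for synthesis and transport, and heat shock proteins at the bottom, at -0.35 and -0.36.

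Each of the remaining lists had at most 3 members higher and 1 lower without the fraction term. In that fit 657 of all 11533 genes tested were higher and 390 lower. With the term, the shares over all genes tested were 22.4% higher and 18.8% lower. Polyadenylated and variant histones were higher in 7 of 10 genes, targets of TGF-beta and BMP in 8 of 13, mucin and ductal secretory genes in 6 of 10, NRF2 targets in 7 of 17, fatty acid synthesis in 6 of 11 and clock genes in 5 of 14, and none of these lists had a lower member. Sterol synthesis and uptake had 8 of 25 higher and 6 lower, and YAP targets 3 of 11 higher and 1 lower. Metallothioneins had 2 of 6 higher and 1 lower, and lysosome and autophagy genes 7 of 18 higher and 3 lower. Epithelial junction and simple keratin genes were lower in 6 of 13 and higher in 2, and mesenchymal genes were higher in 4 of 8 and lower in 2. Cholesterol efflux genes had 2 of 5 higher and lipid oxidation 1 of 8, with 0 lower in each. Of 2 tested Wnt targets 1 was lower. Glucocorticoid targets had 2 of 4 higher, iron genes 1 of 6 higher and 1 lower, and both arrestins that respond to glucose were higher.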

How the data were processed

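RNA of 6 SW1990 libraries was sequenced, and the 4 libraries of sorted cells are compared here. The authors deposited 1 table of gene values with no unit in its header. It is read as FPKM, the unit of Cufflinks 2.1.1, which the submitters' processing notes name together with CASAVA 1.8.2, TopHat2 2.0.11 and hg19. Settings and the use of strand were not found in these sources. Since Cufflinks divides fragments among transcripts, counts and their intervals could not be recovered. The table has 19312 rows. Where a symbol was repeated (191 symbols), the row with the highest mean over the 6 libraries stayed, leaving 19077 genes. Starts were counted from 0 in the table and are given from 1.

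Values were analysed as log2(FPKM + 1) with limma 3.58.1 in R 4.3.3, with terms for fraction and number and a mean trend in the moderated variance, two-sided, with Benjamini-Hochberg adjustment over the 11533 genes that reached an FPKM of 1 in 2 or more sorted libraries. The fit has 1 residual degree of freedom per gene and 9.06 prior ones. The residual one measures how far the fractions disagree on the difference between the numbers. The fractions thus stand in for replicates of a number, and spread between cultures or runs is not measured. The positive and negative libraries of a number share that number, which serves as the compared factor, so the block is the fraction. Alternatives were pseudocounts of 0.1 and 5, no filter, an FPKM of at least 5, quantile and upper quartile scaling, no mean trend, no fraction term and leaving out each library. After the data were seen, 2 were added: leaving out genes low in 1 library, and asking for a difference of at least 0.5 in each fraction.

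The comparison, the 42 gene lists (628 genes, 2 not matched) and the rule for named genes were chosen with earlier results of these data known. The rule takes the 15 highest and 15 lowest genes past the threshold, alike in both fractions and with a mean FPKM of at least 2, up to 4 highest and 4 lowest called members of each list, PODXL, and genes listed at 0 in 1 library. Small RNA genes, unnamed loci, antisense genes and pseudogenes are left out of the first part. Other list members were named for their roles after their values were seen. Promoter sequences come from RefSeq (GRCh38.p14), matched by symbol or synonym. Some items the rule takes are not reported here.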

Additional observations from a re-analysis of the deposited data

Results flagged for a closer look

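Some results went in opposite directions in the positive and negative fraction, with 1 library per number in each fraction, so the difference between the fractions was not tested. The difference of 0610 from 0603 was 10.2 in positive and -0.18 in negative cells for PKM, and -7.97 and 0.05 for APLP2, each with 1 positive library listed at 0. Genes with small differences of opposite sign were DNAJB1 at -0.038 and 0.035, HSPB1 at 0.11 and -0.09, and FOS at -0.14 and 0.16. The median of YAP and TEAD targets was -0.018 in positive and 0.043 in negative cells, and that of iron uptake, storage and export was -0.013 and 0.057.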

How the results depend on the processing

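With 2 libraries per number, the counts of called genes depended on the model. The main counts of 2585 higher and 2168 lower became 657 and 390 with no replicate block, that is without the fraction term, and 0 and 0 with no filter on low values, where 4898 genes had an unadjusted limma p under 0.05 and the prior degrees of freedom were 0.75. Leaving out 1 library gave 18 to 83 higher and 0 to 6 lower genes. Asking for at least 0.5 in each fraction left 187 and 17. Pseudocounts, scalings, the filter at 5, no mean trend and leaving out genes low in 1 library kept both counts within 1.5 times. Counts of 2-fold differences moved with a pseudocount of 0.1 to 67 higher in positive cells, 75 higher in negative cells and 8 lower in negative cells, and with a pseudocount of 5 to 13, 17 and 0, with 3 lower in positive cells. With the filter at 5 the lower counts were 3 in positive and 0 in negative cells, and with no filter 2 in negative cells. The correlation between fractions was 0.83 without genes low in 1 library. Of 125 named genes past the threshold, 0 remained called with no filter and 17 to 48 with 1 library left out. Directions turned under quantile normalization for DNAJB1 (0.015), KRT19 (0.057) and the medians of ER chaperones (0.013) and ribosomal proteins (0.0033), under upper quartile scaling for FOS (-0.0079) and HSPB1 (-0.0090), with no filter for the medians of metallothioneins (-0.0047) and leukocyte markers (-0.0067), and with the filter at 5 for leukocyte markers (-0.20). With 1 library left out, the fit has no fraction term and so mixes the fractions, and some differences changed sign: they ranged from -0.82 to 0.22 for KRT5 and from -0.32 to 0.074 for ISG15, both turning without the positive library 0603 and without the negative library 0610. The ranges were -8.0 to 0.086 for APLP2 and -0.19 to 10.2 for PKM, each turning without the library listed at 0. Of genes not called, the ranges were -0.071 to 0.13 for CDH1, -0.072 to 0.069 for DNAJB1, -0.14 to 0.020 for EIF2AK4, -0.10 to 0.12 for FOS, -0.047 to 0.064 for HSPB1 and -0.20 to 0.094 for MKI67. Of list medians, they were -0.038 to 0.019 for ER chaperones, -0.0061 to 0.20 for mitosis, -0.16 to 0.0071 for ribosomal proteins, -0.51 to 0.18 for squamous genes and -0.054 to 0.20 for leukocyte markers. The cause was not tested. Depth is known only roughly from these values.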
